A study of Saccharomyces cerevisiae with 12 samples.

Results

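The general stress genes described here are 35 genes of budding yeast (Saccharomyces cerevisiae) of the kind switched on by the transcription factors Msn2 and Msn4, among them HSP12, CTT1, DDR2, HSP26, SOL4, PHM7 and SIP18. They were chosen by name, without the genes of trehalose and glycogen metabolism, from the 7127 features of the deposited count table. All 35 were among the 5990 features that passed the filter on low counts and were tested. Msn2 and Msn4 are related zinc-finger activators that bind a short promoter element, the stress response element, in place of each other at most of their targets. In cells growing on ample glucose, the cyclic AMP-dependent kinase PKA and the TOR pathway keep them out of the nucleus, and a range of stresses lets them in. Their targets encode chaperones, antioxidant enzymes, enzymes of carbohydrate metabolism, hydrophilic protective proteins and proteins of the cell surface, most of them at low levels in unstressed cells.

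The table held poly(A) RNA-seq of 12 libraries, 3 in each of 4 groups, from 2 MATa strains treated for 3 hours with ethanol (EtOH) or estradiol (E2). The reference strain carried the centromere of chromosome IV between lox sites (lox-CEN4-lox:KanMX), the estradiol-dependent Cre recombinase GDP-creEBD78:LEU2, and the auxotrophic alleles met15-delta-0, ura3-delta-0, his3-delta-1 and leu2-delta-0. The other strain, called S10D-labelled here, carried loxCEN4lox:KanMX and GDP-creEDB78:LEU2 with a histone construct, hht2-hhf2::[HHT-S10D-HHFS]-URA3. It also carried bar1-delta-, leu2-x and Ade1, the arrays lys4::LacO:hphNT1 and trp1::TetO:TRP1, and the fluorescent repressors TetR-mRFP and his3::LacR-GFP:HIS3. The E2 comparisons ask how these genes differ once the recombinase has been switched on to cut out the centromere, and the strain comparisons ask how they differ with the histone construct. Every group shared the lox sites at CEN4 and the recombinase, so an effect of E2 or of Cre itself cannot be told apart from loss of the centromere. The strains differed at many alleles, so the histone construct cannot be told apart from the rest of the genotype. Whether replicates were grown as separate cultures or clones is not given in the sources used here, so p-values measure the spread between these libraries, which may be technical. In bulk RNA, a change in every cell and a change in the number of cells expressing a gene cannot be told apart.

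Libraries held 9362173 to 11806239 counts. The genotype labels were read against the counts: URA3 had 0 to 5 counts in reference and 1212 to 1529 in S10D-labelled libraries, and MET17, the gene of the met15 allele, had 11 to 23 and 12171 to 16066. At the labelled histone locus, HHT2 had 7906 to 11145 counts in reference and 2290 to 2767 in S10D-labelled libraries, and HHF2 had 4428 to 7626 and 216 to 279. ADE1 had 5630 to 8173 and 1198 to 1479. BAR1 went against its label: the genotype lists bar1-delta-, yet S10D-labelled libraries held 3162 to 3787 counts of it. All 7 a-cell markers were detected in every group, in summed levels of 3818 to 4543 and 3191 to 3271 CPM (counts scaled to a common library size by TMM) in reference EtOH and E2, and of 2361 to 2420 and 2161 to 2206 CPM in S10D-labelled EtOH and E2. The 4 alpha-cell markers summed to 49.5 to 68.8 CPM and the 7 meiosis markers to 59.8 to 79.4 CPM over all libraries. One library stood apart: in reference EtOH replicate 3, the cytoplasmic RNA SCR1 was at 204 CPM against 84.6 and 75.2 CPM in its fellow replicates, and SCR1 ran from 48.9 to 61.3 CPM in reference E2, 8.14 to 12.6 CPM in S10D-labelled EtOH and 14.9 to 38.9 CPM in S10D-labelled E2. Among the stress genes, that library was high in HSP42, TMA10, STF2 and SPI1. It also lay above its fellow replicates in others such as SOL4. Values without it are given beside many of the results it touches. The part of marker levels and SCR1 in the results was not tested.

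The stress response element was searched in the promoters as its core, CCCCT, on both strands (CCCCT or AGGGG), in build R64. Within 250 bases before the start codon, 22 of the 35 members (62.9%) held at least 1 match, against 1126 of 6001 nuclear protein-coding genes (18.8%), and 10 members (28.6%) held at least 2, against 2.2%. Within 500 bases, 31 of 35 (88.6%) held a match, against 34.1% of 6000 genes. SSA3, ALD2, AMS1 and GRE1 had none in these 500 bases. The members were assembled as genes of the Msn2 and Msn4 type, so this excess describes the choice of genes. A match is a description of letters, not of a bound site. Shown next are 300 bases, from 400 to 101 before the start codon, of 3 members named in the rule of the set (CTT1, HSP12 and DDR2), of USV1, which rose in both strains, and of GPD1, which fell in the reference strain. Capitals mark the matches, 3 in each of CTT1, HSP12, DDR2 and USV1 and 2 in GPD1. The windows are chrVII:654234-654533 (plus strand), chrVI:106856-107155 (plus), chrXV:231856-232155 (minus), chrXVI:114912-115211 (plus) and chrIV:411425-411724 (plus).
CTT1: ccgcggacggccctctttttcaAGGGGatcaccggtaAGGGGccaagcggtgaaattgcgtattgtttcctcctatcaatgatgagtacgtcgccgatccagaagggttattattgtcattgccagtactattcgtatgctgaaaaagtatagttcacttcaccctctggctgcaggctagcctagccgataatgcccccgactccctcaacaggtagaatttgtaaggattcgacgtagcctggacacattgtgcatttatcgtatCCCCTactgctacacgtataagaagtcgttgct
HSP12: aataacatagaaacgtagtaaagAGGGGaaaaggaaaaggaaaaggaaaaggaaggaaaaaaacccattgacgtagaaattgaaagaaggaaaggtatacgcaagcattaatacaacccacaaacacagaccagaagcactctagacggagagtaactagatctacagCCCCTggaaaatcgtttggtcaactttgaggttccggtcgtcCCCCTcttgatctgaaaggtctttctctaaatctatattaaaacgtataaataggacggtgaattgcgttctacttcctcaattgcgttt
DDR2: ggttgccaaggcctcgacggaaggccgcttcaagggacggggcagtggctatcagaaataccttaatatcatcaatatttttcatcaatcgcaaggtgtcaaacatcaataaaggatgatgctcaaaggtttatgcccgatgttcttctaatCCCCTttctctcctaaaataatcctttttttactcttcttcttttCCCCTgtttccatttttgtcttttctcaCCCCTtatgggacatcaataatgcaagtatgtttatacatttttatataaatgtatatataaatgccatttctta
USV1: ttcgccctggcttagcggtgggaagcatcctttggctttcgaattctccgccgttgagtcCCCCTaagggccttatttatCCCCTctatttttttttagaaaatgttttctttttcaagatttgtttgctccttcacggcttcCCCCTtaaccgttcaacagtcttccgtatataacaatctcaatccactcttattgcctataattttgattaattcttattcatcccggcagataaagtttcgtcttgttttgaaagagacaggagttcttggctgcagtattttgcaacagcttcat
GPD1: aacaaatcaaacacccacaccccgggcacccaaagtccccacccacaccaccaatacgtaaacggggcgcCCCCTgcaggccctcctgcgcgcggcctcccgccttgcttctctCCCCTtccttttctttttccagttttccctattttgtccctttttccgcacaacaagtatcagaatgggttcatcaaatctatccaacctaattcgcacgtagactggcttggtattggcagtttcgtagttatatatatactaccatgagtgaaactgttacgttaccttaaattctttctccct

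Levels of the members spanned more than 2 orders of magnitude in the ethanol arm. In the reference strain in EtOH, and per kilobase (kb) of coding length so that genes can be compared, HSP12 stood highest at 3219 CPM per kb, followed by YGP1 at 2555, HSP26 at 1925 and HXK1 at 1215 CPM per kb. The lowest 3 were ALD2 at 18.8, PHM7 at 12.8 and SDP1 at 10.8 CPM per kb. Together the 35 genes took 1.31% ± 0.0345 (SD, n = 3) of all counts in reference EtOH and 2.37% ± 0.0418 in reference E2. In the S10D-labelled strain they took 1.23% ± 0.0114 in EtOH and 1.26% ± 0.0102 in E2. The share was thus higher in each reference E2 library than in any other library, and the other 3 groups lay close together.

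**Figure D1:**
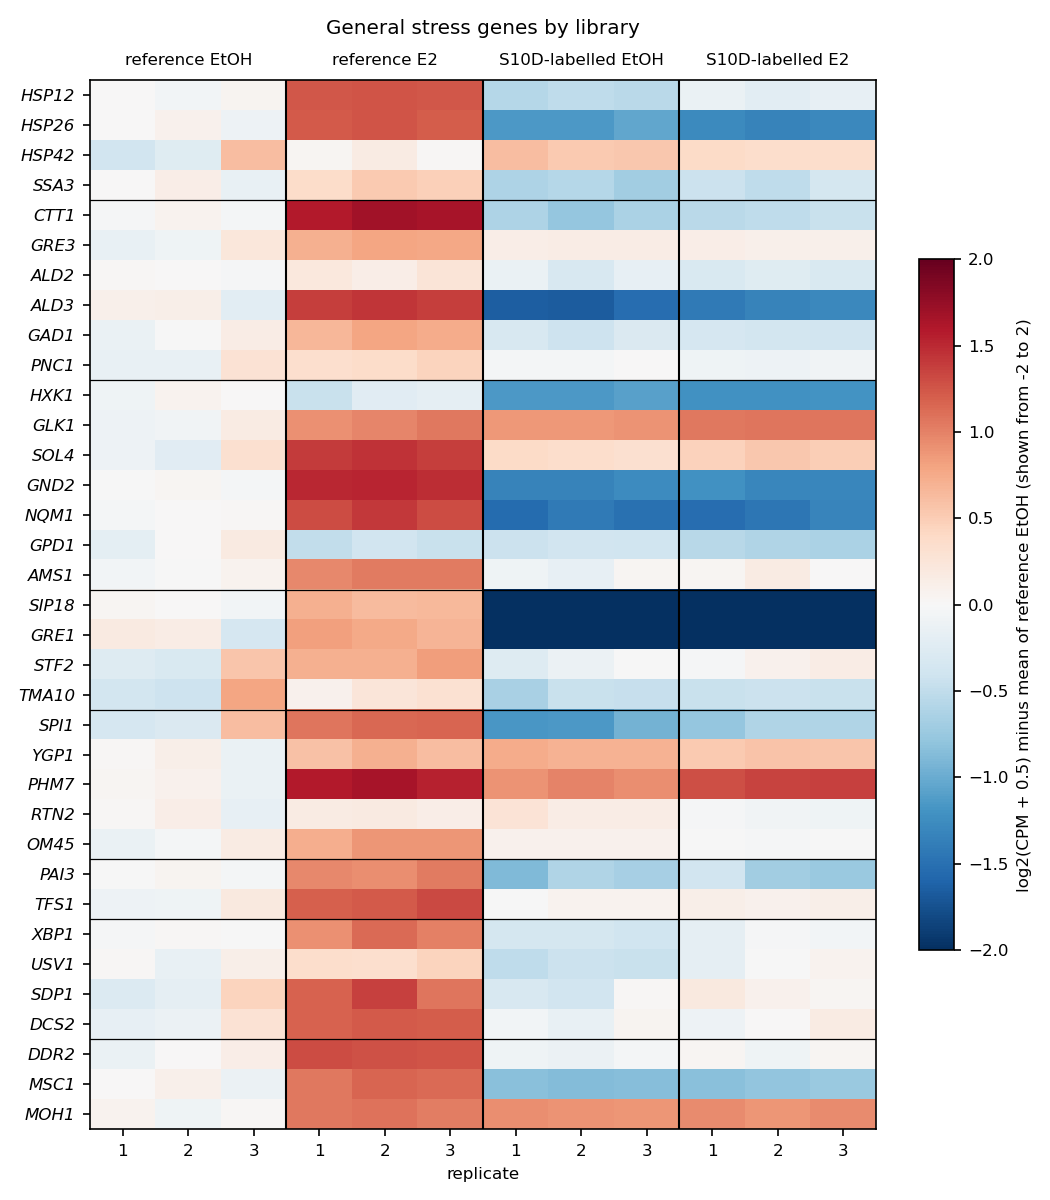
Level of each of the 35 general stress genes (rows, grouped by role) in each of the 12 libraries (columns), as log2(CPM + 0.5) minus the mean of the reference EtOH libraries, on a colour scale from blue (lower) to red (higher). The 3 reference E2 columns are red for most rows, the S10D-labelled columns look alike in EtOH and E2, and reference EtOH replicate 3 is red for HSP42, STF2, TMA10 and SPI1.

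E2 in the reference strain was compared with EtOH first. Of the 35 stress genes, 30 rose and 2 fell at a Benjamini-Hochberg adjusted p under 0.05 (edgeR's quasi-likelihood test, adjusted over all 5990 features), and 3 were not called. Over all features, 44.6% were called in either direction, 22.4% higher and 22.2% lower. The median log2 fold change of the members was 0.99, against -0.00 over all features. The libraries of E2 and EtOH did not overlap for 30 members in the upward and 2 in the downward direction, against 24.8% and 23.8% of all features. Called higher with a fold change of at least 2 were 17 members, which make up 14.5% of the 117 features that rose so far and 48.6% of the members. The call was against no change, not against a doubling.

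Chaperones came first by role. HSP12 (YFL014W), a small membrane-associated stress protein, stood at 1063, 1020.3 and 1103 CPM in the 3 reference EtOH libraries and at 2515, 2528 and 2515 CPM in E2. Its groups were far apart, with a log2 fold change of 1.25 ± 0.04 (SE, adjusted p = 8.295e-11, edgeR). HSP26 (YBR072W), a small heat shock protein that holds unfolded proteins, stood at 1251, 1312 and 1162 CPM in EtOH and at 2894, 2957 and 2873 CPM in E2, also without overlap, and rose by 1.23 ± 0.05. SSA3 (YBL075C), a stress-inducible Hsp70 chaperone, rose by less, 0.45 ± 0.07 on the log2 scale, from 108 ± 10.4 to 147 ± 8.01 CPM (SD, n = 3). HSP42 (YDR171W), a small heat shock protein also made in unstressed cells, stood at 104, 114 and 206 CPM in EtOH and at 138, 152 and 138 CPM in E2. Replicate 3 of EtOH lay above all E2 libraries, and the log2 fold change was 0.01 ± 0.20 (adjusted p = 0.985). Without that library HSP42 was called higher, by 0.38 (adjusted p = 4.276e-07).

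The 6 enzymes that act on oxidants, aldehydes and other small molecules all rose. CTT1 (YGR088W), the cytosolic catalase that breaks down hydrogen peroxide, had the highest fold change of all members, from 160.5, 171 and 159 CPM in EtOH to 489.9, 525 and 513 CPM in E2. Every E2 library held about the same level, and the rise was 3.12-fold (log2 1.64 ± 0.05 SE). ALD3 (YMR169C), a cytosolic aldehyde dehydrogenase, went from 88.6, 89.2 and 71.2 CPM to 216, 223 and 216 CPM, a log2 fold change of 1.40 ± 0.07 with no overlap. Its neighbour and close paralog ALD2 (YMR170C) stood at 29.0, 28.6 and 28.2 CPM in EtOH and at 33.2, 31.4 and 34.5 CPM in E2, a small rise of 0.21 ± 0.07 (adjusted p = 0.0232, edgeR). ALD2 was not called with DESeq2, in a fit of the 6 reference libraries alone, or without reference E2 replicate 3, where its adjusted p was at most 0.0819. The coding sequences of ALD2 and ALD3 were 91.8% identical, and 40.4% of the 50-base stretches of ALD2 also occurred in ALD3, so the split of reads between them is uncertain. GRE3 (YHR104W), an aldose reductase, rose by 0.75 ± 0.07 and GAD1 (YMR250W), glutamate decarboxylase, by 0.73 ± 0.06. PNC1 (YGL037C), the nicotinamidase of NAD salvage, rose by 0.37 ± 0.09, or by 0.53 without reference EtOH replicate 3.

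Among the 7 enzymes of sugar and glycerol metabolism, 5 rose and 2 fell. GND2 (YGR256W), the minor phosphogluconate dehydrogenase of the pentose phosphate pathway, stood at 76.7, 78.9 and 75.2 CPM in EtOH and at 218, 221 and 214 CPM in E2, a log2 fold change of 1.50 ± 0.04. SOL4 (YGR248W), a phosphogluconolactonase of the same pathway, went from 92.1, 83.7 and 123 CPM to 260.4, 267 and 257 CPM, by 1.39 ± 0.10. Without reference EtOH replicate 3 the rise of SOL4 was 1.57. NQM1 (YGR043C), a transaldolase, went from 77.8, 80.8 and 81.3 CPM to 199, 213 and 198 CPM, by 1.35 ± 0.05. These 3 pentose phosphate genes thus more than doubled, with no overlap between groups. AMS1 (YGL156W), the vacuolar alpha-mannosidase, rose by 1.02 ± 0.06. GLK1 (YCL040W), glucokinase, stood at 1022, 1047 and 1227 CPM in EtOH and at 2069, 2161 and 2268 CPM in E2, and rose by 0.98 ± 0.06. GLK1 shares 106 bases with the overlapping frame YCL042W, so reads there may be counted for either.

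HXK1 (YFR053C) and GPD1 (YDL022W) went the other way. HXK1, a hexokinase, stood at 1666, 1865 and 1784 CPM in EtOH and at 1299, 1517 and 1559 CPM in E2, and fell by 0.28 on the log2 scale (SE 0.06, adjusted p = 0.002161, edgeR). GPD1, glycerol phosphate dehydrogenase, which makes glycerol as an osmolyte, stood at 262, 302 and 339.6 CPM in EtOH and at 212, 229 and 220.3 CPM in E2, and fell by 0.45 (SE 0.07, adjusted p = 0.000172). The groups did not overlap in either gene. Both held 3 matches to the element core within 500 bases of the start codon.

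Of the hydrophilins and their relatives, small hydrophilic proteins linked to survival of drying, 3 of 4 rose. SIP18 (YMR175W) went from 42.3, 41.3 and 39.6 CPM to 67.3, 63.6 and 64.7 CPM (log2 0.67 ± 0.07), and its paralog GRE1 (YPL223C) from 90.7, 88.7 and 63.4 CPM to 141, 135 and 128 CPM (0.74 ± 0.12). Neither pair of groups overlapped. STF2 (YGR008C), a protein of dehydration tolerance, stood at 236, 228 and 412 CPM in EtOH and at 460.3, 459 and 504 CPM in E2 (0.70 ± 0.19, or 1.03 without reference EtOH replicate 3). Its paralog TMA10 (YLR327C) stood at 88.2, 84.7 and 196 CPM in EtOH and at 121, 134 and 141 CPM in E2, so that replicate 3 of EtOH lay above all E2 libraries. TMA10 was not called (0.10 ± 0.26, adjusted p = 0.787, edgeR), and without that replicate it was called higher by 0.61 (adjusted p = 1.352e-09).

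Surface and membrane proteins rose in 4 of 5 cases. PHM7 (YOL084W), a membrane protein of unknown function, stood at 39.3, 40.6 and 34.7 CPM in EtOH and at 115, 121 and 112 CPM in E2, a 3.04-fold rise (log2 1.60 ± 0.06). SPI1 (YER150W), a cell wall protein anchored by a lipid, stood at 165, 169 and 319 CPM in EtOH and at 436, 461 and 466 CPM in E2 (1.06 ± 0.21, or 1.45 without reference EtOH replicate 3). OM45 (YIL136W), of the mitochondrial outer membrane, rose by 0.82 ± 0.07. YGP1 (YNL160W), a secreted glycoprotein, stood at 2745, 2935 and 2485 CPM in EtOH and at 4094, 4436 and 4186 CPM in E2, and rose by 0.64 ± 0.05 with no overlap. RTN2 (YDL204W), a reticulon of the endoplasmic reticulum, stood at 224, 241 and 196 CPM in EtOH and at 245, 249 and 241 CPM in E2, with groups that overlapped, and was not called (0.15 ± 0.06, adjusted p = 0.07015). RTN2 was called higher with the replicate number as a block, with a higher filter and without reference EtOH replicate 2, where its log2 fold change was 0.22. Without reference EtOH replicate 3 its value was 0.07 (adjusted p = 0.168).

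The proteinase inhibitors, regulators and remaining members all rose. TFS1 (YLR178C), an inhibitor of carboxypeptidase Y, rose by 1.24 ± 0.07 and PAI3 (YMR174C), an inhibitor of proteinase A, by 0.99 ± 0.09. The regulators among the members were XBP1 (YIL101C), a transcriptional repressor (1.03 ± 0.06), SDP1 (YIL113W), a phosphatase of MAP kinase (1.22 ± 0.17), DCS2 (YOR173W), a relative of the scavenger decapping enzyme (1.19 ± 0.10), and USV1 (YPL230W), a zinc-finger transcription factor (0.37 ± 0.07). Without reference EtOH replicate 3, SDP1 rose by 1.50 and DCS2 by 1.35. USV1 stood at 212, 186 and 226 CPM in EtOH and at 264, 261 and 283 CPM in E2. DDR2 (YOL052C-A), a small protein first found among DNA damage-responsive genes, went from 115, 126 and 138 CPM to 311, 304 and 302 CPM (1.27 ± 0.06). MSC1 (YML128C) rose by 1.11 ± 0.05. MOH1 (YBL049W) stood at 10.4, 9.26 and 10.0 CPM in EtOH and at 20.98, 21.6 and 20.5 CPM in E2 (1.08 ± 0.08). None of these groups overlapped.

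By position, the members lie over many chromosomes. The 3 on chromosome IV, whose centromere lies between the lox sites, were HSP42, RTN2 and GPD1, with log2 fold changes of 0.01, 0.15 and -0.45. The first was called higher without reference EtOH replicate 3 and RTN2 under the alternatives named above. ALD3 and ALD2 lie next to each other on chromosome XIII with 689 bases between them, on the same strand, and differed in response as given above. PAI3 and SIP18, also on chromosome XIII, face away from each other across 650 bases and rose by 0.99 and 0.67.

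E2 in the S10D-labelled strain was compared with EtOH next. Of the 35 members, 4 rose, 2 fell and 29 were not called (edgeR, adjusted p under 0.05), where 4.56% of all features were called in either direction, 2.42% higher and 2.14% lower. The median log2 fold change of the members was 0.08, against 0.00 over all features. The libraries did not overlap for 13 members in the upward and 8 in the downward direction, against 17.5% and 18.3% of all features. No called member had a fold change of at least 2.

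The 4 that rose were USV1, PHM7, HSP12 and XBP1. USV1 stood at 146, 153 and 152 CPM in S10D-labelled EtOH and at 183, 206 and 219 CPM in E2, a log2 fold change of 0.43 ± 0.07 (SE, adjusted p = 0.00425, edgeR). PHM7 stood at 71.2, 76.2 and 72.9 CPM and at 94.0, 98.4 and 99.0 CPM (0.40 ± 0.06), and HSP12 at 717, 747 and 734 CPM and at 969, 912 and 945 CPM (0.36 ± 0.04). XBP1 stood at 46.9, 46.9 and 45.0 CPM and at 52.7, 58.6 and 57.3 CPM (0.28 ± 0.07, adjusted p = 0.0279). All 4 had groups that did not overlap. The call of XBP1 ended in the fits without any of the 3 S10D-labelled EtOH libraries or without S10D-labelled E2 replicate 2 or 3.

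The 2 that fell did so by little. HSP26 stood at 562, 557 and 600.1 CPM in EtOH and at 511, 492 and 505 CPM in E2 (-0.19 ± 0.05, adjusted p = 0.0416), and RTN2 at 267, 244 and 244 CPM and at 215, 209 and 207 CPM (-0.26 ± 0.06, adjusted p = 0.0372, edgeR). Both calls ended in each fit without 1 of the 6 S10D-labelled libraries or 1 of the 3 reference E2 libraries. Without reference EtOH replicate 3, which is in neither of the groups compared but shares the estimate of spread, 11 members were called higher and 5 lower. Calls over all features rose in that fit too, to 507 higher and 484 lower from 145 and 128.

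Members with the strongest reference response were mostly among those not called here. CTT1 stood at 106, 95.2 and 105 CPM in EtOH and at 113, 115 and 120.4 CPM in E2 (0.18 ± 0.05, adjusted p = 0.0803). GND2 stood at 30.0, 30.0 and 32.0 CPM and at 32.8, 30.9 and 30.9 CPM (0.04 ± 0.05), and NQM1 at 27.1, 29.6 and 28.2 CPM and at 27.4, 29.0 and 31.8 CPM (0.06 ± 0.07). These groups overlapped in GND2 and NQM1 and not in CTT1. ALD3 stood at 25.9, 25.7 and 28.4 CPM and at 30.8, 32.4 and 33.6 CPM (0.28 ± 0.09, adjusted p = 0.115, edgeR). SOL4 stood at 128, 126 and 123 CPM and at 136, 144 and 138 CPM (0.15 ± 0.10), and DDR2 at 118, 117 and 123 CPM and at 130.0, 119 and 129 CPM (0.08 ± 0.06). SPI1 had a log2 fold change of 0.42 with a wide error, ± 0.22 (adjusted p = 0.374), from 92.1, 93.1 and 107 CPM to 121, 136 and 136 CPM. GPD1 stood at 223, 229 and 228 CPM and at 204, 197 and 193 CPM (-0.20 ± 0.07, adjusted p = 0.163), and HSP42 at 206, 194 and 195 CPM and at 176, 171 and 172 CPM (-0.20 ± 0.20). Neither SPI1 nor HSP42 had groups that overlapped. Without reference EtOH replicate 3, SPI1 was called higher (0.42, adjusted p = 2.986e-06, edgeR) and HSP42 lower (-0.20, adjusted p = 0.00172). In that fit CTT1, ALD3, SOL4, STF2, SSA3 and GLK1 were also called higher, and GPD1 and YGP1 lower.

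**Figure D2:**
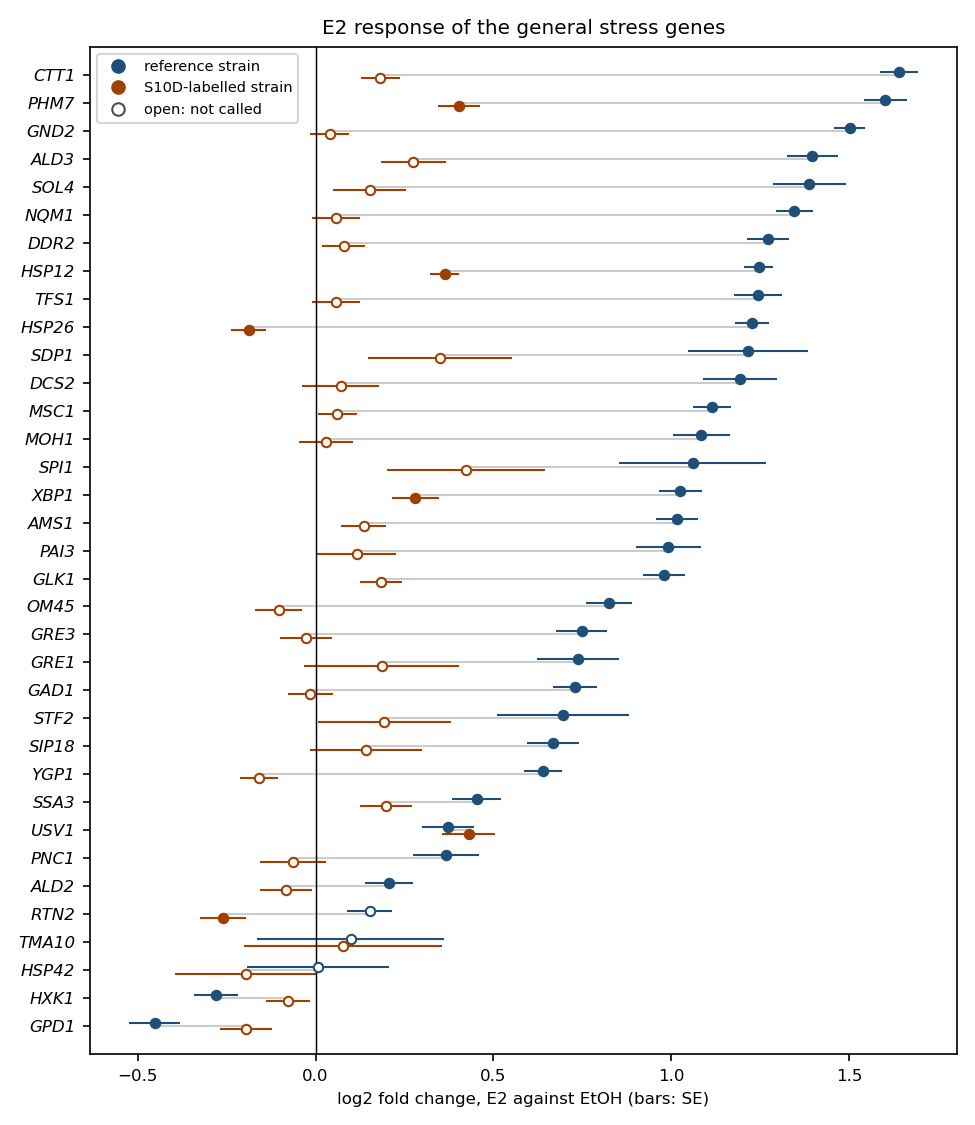
Log2 fold change of E2 against EtOH (x axis, bars: SE of the fit) for each of the 35 general stress genes (y axis, ordered by the reference response), in the reference strain (blue) and the S10D-labelled strain (orange), with open points for values not called. CTT1 is at 1.64 in the reference and 0.18 in the S10D-labelled strain, while USV1 is at 0.37 and 0.43.

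The difference of the responses, S10D-labelled minus reference, was tested as an interaction in the same fit. For 25 of the 35 members the response was called lower in the S10D-labelled strain, for 0 higher, and 10 were not called (edgeR, adjusted p under 0.05), with 20.4% of all features called in either direction, 10.6% lower and 9.82% higher. At an unadjusted p under 0.05, edgeR gave 2 members with a higher response, HXK1 and GPD1, and DESeq2 gave 0 at its adjusted p. The median difference of the members was -0.80 on the log2 scale, against 0.01 over all features. The difference was called and lower by at least 1 for 12 members, which make up 16.9% of the 71 such features and 34.3% of the members.

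The most negative differences were those of GND2 (-1.46 ± 0.07 SE), CTT1 (-1.46 ± 0.08) and HSP26 (-1.42 ± 0.07), followed by NQM1 (-1.29 ± 0.09) and SOL4 (-1.24 ± 0.15). This order is that of the main fit. Without reference EtOH replicate 3, SOL4 was at -1.42, beyond HSP26 at -1.37 and NQM1 at -1.30. The most positive was that of GPD1, 0.26 ± 0.10, which was not called (adjusted p = 0.0927, edgeR) but was called at 0.35 without reference EtOH replicate 1. USV1 had a difference of 0.06 ± 0.10 (adjusted p = 0.742), and its E2 response was called in each strain. The other members with no call were HXK1 (0.20 ± 0.09), SSA3 (-0.26 ± 0.10), ALD2 (-0.29 ± 0.10), HSP42 (-0.20 ± 0.28), TMA10 (-0.02 ± 0.38), STF2 (-0.50 ± 0.26), GRE1 (-0.55 ± 0.25) and SPI1 (-0.64 ± 0.30). Of these, HSP42, TMA10, STF2 and SPI1 were called lower without reference EtOH replicate 3, by -0.58, -0.53, -0.84 and -1.02. The calls of PNC1, SDP1 and SIP18 were the weakest of the 25: each ended in at least 9 of the 12 fits that left out 1 library, with adjusted p up to 0.08313, 0.1108 and 0.3481. The difference of SIP18 was -0.33 without S10D-labelled EtOH replicate 1.

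**Figure D3:**
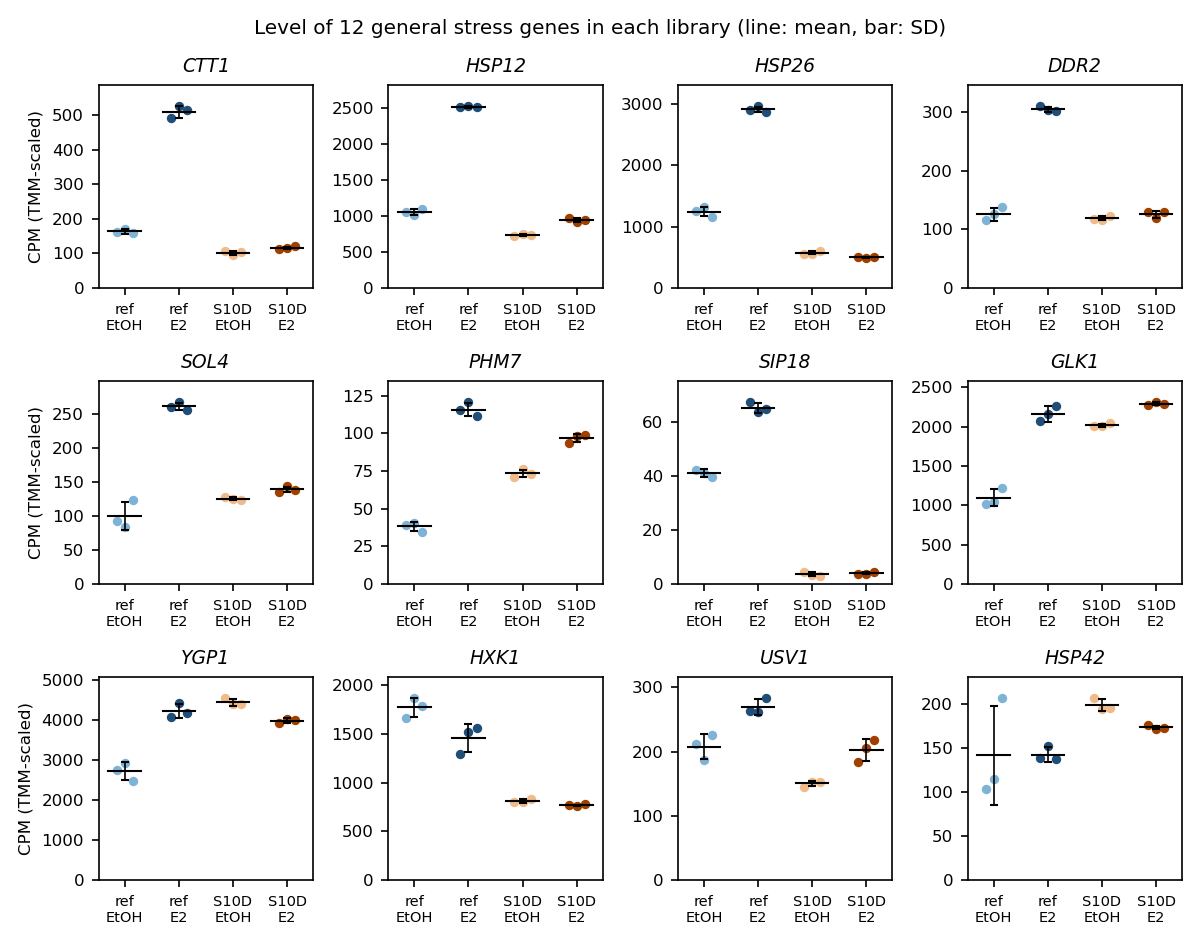
Level (CPM, TMM-scaled, linear axis from 0) of 12 general stress genes in each library (points) of the 4 groups (x axis), with the mean (line) and SD (bar) of 3 libraries. CTT1, HSP26 and DDR2 are highest in the 3 reference E2 libraries, SIP18 is near 4 CPM in both S10D-labelled groups, and HSP42 has 1 high library in reference EtOH.

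The strains were compared in the EtOH arm. In the S10D-labelled strain 6 members were higher, 18 lower and 11 not called against the reference (edgeR, adjusted p under 0.05), where 58.1% of all features were called in either direction, 26.7% higher and 31.4% lower. The median log2 fold change of the members was -0.35, against -0.03 over all features, and it was -0.21 without reference EtOH replicate 3. The libraries did not overlap for 5 members in the upward and 19 in the downward direction, against 28.5% and 32.6% of all features. Without reference EtOH replicate 3 the count of higher members was 12, and that of all features was 1847 in place of 1602. The added calls were HSP42 (0.86, against 0.48 in the main fit), GRE3 (0.25), OM45 (0.17), STF2 (0.15), TFS1 (0.14) and PNC1 (0.13). TMA10 was not called in either fit and moved from -0.64 to -0.13. The other members with no call in the main fit were AMS1, SDP1, DCS2 and DDR2.

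The hydrophilin paralogs GRE1 and SIP18 differed most. GRE1 stood at 5.89, 7.73 and 7.61 CPM in S10D-labelled EtOH, against 63.4 CPM or more in each reference library (log2 -3.52 ± 0.16). SIP18 stood at 4.51, 3.42 and 2.98 CPM, against at least 39.6 CPM (-3.48 ± 0.11). These 2 were followed by ALD3 (-1.64 ± 0.08), NQM1 (-1.50 ± 0.06) and GND2 (-1.33 ± 0.05). HXK1 (-1.13 ± 0.06) and HSP26 (-1.12 ± 0.05) were also lower by more than a factor of 2. SPI1 stood at -1.16 ± 0.22, or at -0.77 without reference EtOH replicate 3, the library in which it was high. HXK1 stood at 799.9, 796 and 834 CPM in S10D-labelled EtOH, below each reference EtOH library.

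The 6 higher members were PHM7 (0.94 ± 0.06), MOH1 (0.93 ± 0.08), GLK1 (0.88 ± 0.06), YGP1 (0.71 ± 0.05), SOL4 (0.33 ± 0.10) and RTN2 (0.19 ± 0.06). MOH1 stood at 19.2, 18.8 and 18.6 CPM in S10D-labelled EtOH, GLK1 at 2004, 2006 and 2042 CPM and YGP1 at 4551, 4404 and 4396 CPM. For these 3 genes the S10D-labelled EtOH libraries lay above every reference EtOH library. The call of SOL4 ended without reference EtOH replicate 1 or 2 and in the fit of the 6 EtOH libraries alone, and that of RTN2 ended without S10D-labelled EtOH replicate 1 and in the same smaller fit. Without reference EtOH replicate 3 these values were 0.51 for SOL4 and 0.11 for RTN2, and without reference EtOH replicate 2 SOL4 was at 0.22. Among the lower members, ALD2 (-0.21 ± 0.07) lost its call with DESeq2, in the smaller fit, and without reference EtOH replicate 1 or S10D-labelled EtOH replicate 2.

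In E2 the strains differed further. Here 29 members were lower in the S10D-labelled strain, 0 were higher and 6 were not called (edgeR), where 54.3% of all features were called in either direction, 27.3% lower and 27.0% higher. The median log2 fold change of the members was -0.95, against -0.01 over all features. The libraries did not overlap for 33 members in the downward and 2 in the upward direction, against 34.6% and 34.0% of all features. At an unadjusted p under 0.05, edgeR also gave 0 higher members, as did DESeq2 at its adjusted p. Called lower with a fold change of at least 2 were 17 members, 6.23% of the 273 features that were lower by so much.

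GRE1 was again lowest, at 6.78, 9.36 and 7.75 CPM in S10D-labelled E2 (-4.07 ± 0.15), with SIP18 at 3.87, 3.76 and 4.48 CPM (-4.01 ± 0.10). NQM1 (-2.79 ± 0.06), GND2 (-2.79 ± 0.05), ALD3 (-2.76 ± 0.08), HSP26 (-2.53 ± 0.05) and CTT1 (-2.14 ± 0.05) were each lower by more than a factor of 4. The members with no call were HSP42 (0.28 ± 0.20), GLK1 (0.08 ± 0.06), YGP1 (-0.09 ± 0.05), MOH1 (-0.13 ± 0.07), GPD1 (-0.15 ± 0.07) and TMA10 (-0.66 ± 0.27). GLK1 stood at 2279, 2311 and 2287 CPM in S10D-labelled E2, just above its reference E2 libraries, and MOH1 at 19.6, 18.6 and 19.6 CPM, just below them. YGP1 stood at 3924, 4034 and 4007 CPM, below each reference E2 library by a small step. Without reference EtOH replicate 3, HSP42 and GLK1 were called higher and GPD1, TMA10 and YGP1 lower.

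**Figure D4:**
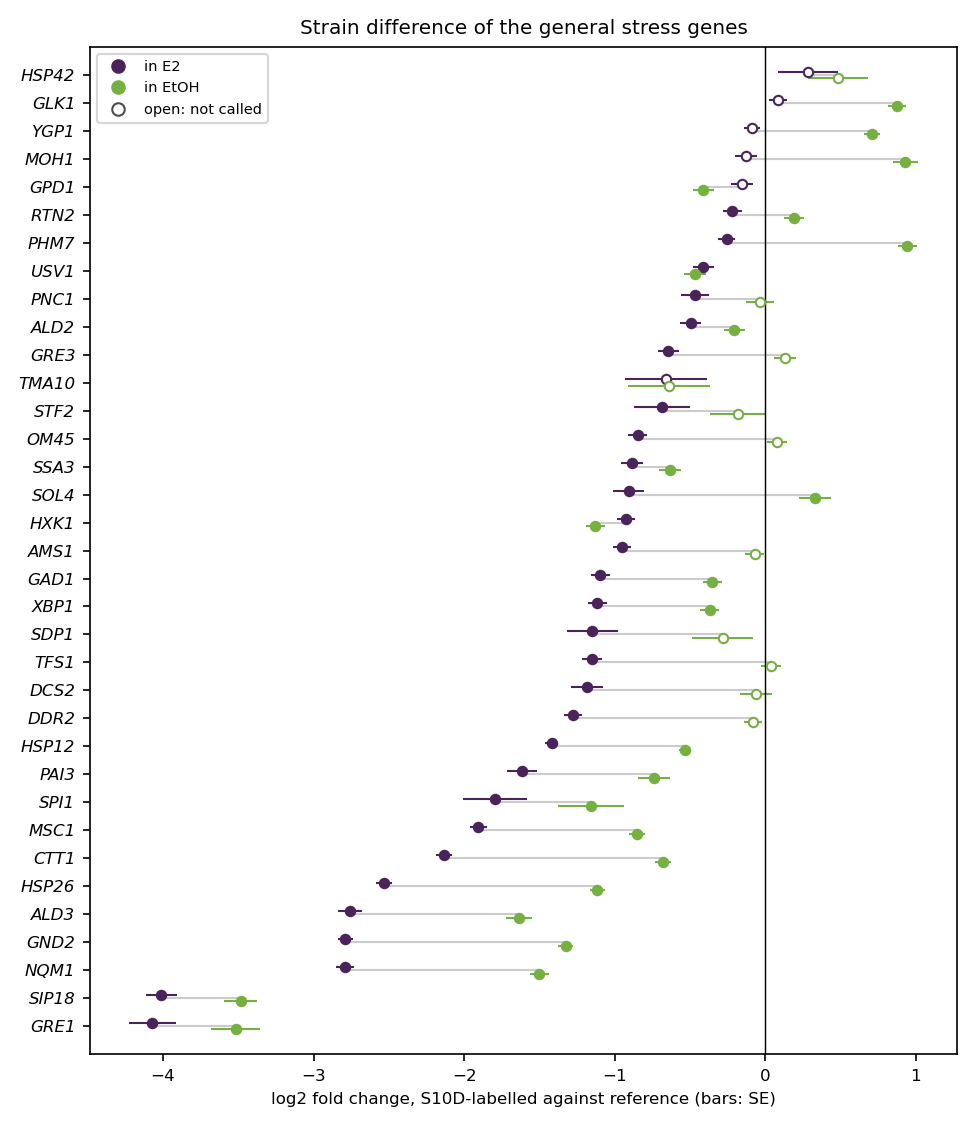
Log2 fold change of the S10D-labelled against the reference strain (x axis, bars: SE of the fit) for each of the 35 general stress genes (y axis, ordered by the value in E2), in E2 (purple) and EtOH (green), with open points for values not called. GRE1 and SIP18 are at -4.07 and -4.01 in E2, and PHM7 is at 0.94 in EtOH and -0.25 in E2.

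The regulators of the general stress response were read from a list of 32 genes, which includes MSN2, MSN4 and genes of the PKA, TOR, Hog1 and Snf1 pathways. In the reference strain 17 rose and 1 fell in E2 (edgeR, adjusted p under 0.05), against 22.4% and 22.2% of all features, with a median log2 fold change of 0.13. MSN2 stood at 120.1, 134 and 107 CPM in EtOH and at 133, 139.7 and 135 CPM in E2, groups that overlapped, with a log2 fold change of 0.18 ± 0.07 (adjusted p = 0.0406). MSN4 stood at 236, 244 and 217 CPM and at 249, 273 and 270.4 CPM, without overlap (0.18 ± 0.05, adjusted p = 0.0107). Both transcripts thus moved far less than most of the members. The 4 called regulators with the highest fold change were PDE2, a cyclic AMP phosphodiesterase (0.83 ± 0.10), RIM15, a kinase of stationary phase entry (0.60 ± 0.10), and IRA2 and IRA1, inhibitors of Ras (0.54 ± 0.09 and 0.53 ± 0.08). In the S10D-labelled strain, where 2.42% of all features rose, 3 of the 32 did, MSN4 (0.21 ± 0.05), IRA1 (0.30 ± 0.08) and IRA2 (0.35 ± 0.09), while MSN2 was not called (-0.07 ± 0.07). The difference of responses was called lower for 5 of the 32, against 10.6% of all features. These were PDE2 (-0.75 ± 0.14), RIM15 (-0.43 ± 0.14), MSN5, the exportin of Msn2 (-0.39 ± 0.06), BCY1, the inhibitory subunit of PKA (-0.32 ± 0.06) and CYR1, adenylate cyclase (-0.30 ± 0.10).

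Between the strains, MSN2 was higher and MSN4 lower in the S10D-labelled strain. In EtOH, MSN2 stood at 165, 162 and 156 CPM in that strain (0.42 ± 0.07 against the reference) and MSN4 at 151, 152 and 149.7 CPM (-0.63 ± 0.05). In E2, MSN2 stood at 154, 156 and 150.4 CPM (0.17 ± 0.07) and MSN4 at 170.2, 171 and 180.1 CPM (-0.60 ± 0.05). None of these groups overlapped. Of all 32 regulators, 14 were higher and 8 lower in EtOH, against 26.7% and 31.4% of all features. In E2, 6 were higher and 13 lower, against 27.0% and 27.3%. The medians were 0.10 and -0.06. Besides these, PDE2 was higher in EtOH (0.83 ± 0.10), and PSR2, a plasma membrane phosphatase (-0.68 ± 0.06), and GPA2, the G protein of glucose sensing (-0.65 ± 0.05), were lower.

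Many members have a close paralog that is not counted as a general stress gene, and 17 such paralogs were read beside them. In the reference strain 6 of these rose and 7 fell in E2 (edgeR), against 22.4% and 22.2% of all features, with a median log2 fold change of 0.06. The enzymes of the pentose phosphate pathway split by copy: GND1, the major phosphogluconate dehydrogenase, fell by 0.23 (SE 0.04) where GND2 rose, SOL3 fell by 0.29 (SE 0.06) where SOL4 rose, and TAL1, the major transaldolase, fell by 0.23 (SE 0.04) where NQM1 rose. RTN1 fell by 0.22 (SE 0.04). HXK2, the main hexokinase on glucose, fell by 0.64 (SE 0.04) together with HXK1, and EMI2, the paralog of GLK1, fell by 0.48 (SE 0.11). GPD2, in contrast to GPD1, rose by 0.36 ± 0.07. The Hsp70 genes SSA4 (1.19 ± 0.06) and SSA1 (0.94 ± 0.06) rose by more than SSA3, and ALD4, the mitochondrial aldehyde dehydrogenase (1.14 ± 0.07), and DCS1 (0.81 ± 0.05) rose as well. CTA1, the peroxisomal catalase, was not called (0.28 ± 0.15). None of the 50-base stretches of these members occurred in the paralog they were aligned with, apart from the ALD2 and ALD3 pair. The difference between a member and its paralog was not tested.

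In the S10D-labelled strain 1 of the 17 paralogs rose in E2, DCS1 (0.20 ± 0.05), and 2 fell, HXK2 (-0.21 ± 0.04) and GND1 (-0.17 ± 0.04), against 2.42% and 2.14% of all features. With 10.6% of all features lower and 9.82% higher, the difference of responses was called lower for 6, among them SSA4 (-1.21 ± 0.08), ALD4 (-1.02 ± 0.10), SSA1 (-0.92 ± 0.08) and DCS1 (-0.60 ± 0.07), and higher for 1, HXK2 (0.43 ± 0.05). Between the strains in EtOH 8 paralogs were higher and 2 lower, against 26.7% and 31.4% of all features, led by SSA2 (1.005 ± 0.06), GND1 (0.99 ± 0.04) and ALD5 (0.95 ± 0.05). In E2 7 were higher and 7 lower, against 27.0% and 27.3%, with SSA4 at -1.78 ± 0.06 and GND1 at 1.05 ± 0.04.

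The trehalose and glycogen genes, 16 enzymes of storage carbohydrates that the set leaves out, were read for comparison. In the reference strain 9 rose and 1 fell in E2 (edgeR), against 22.4% and 22.2% of all features, with a median log2 fold change of 0.41. Those that rose were led by TSL1, a subunit of the trehalose synthase complex (1.36 ± 0.08), GDB1, the glycogen debranching enzyme (1.36 ± 0.06), TPS1, trehalose phosphate synthase (0.76 ± 0.09), and ATH1, an acid trehalase (0.73 ± 0.06). TPS2, trehalose phosphate phosphatase, fell by 0.47 (SE 0.14). In the S10D-labelled strain 2 rose, TSL1 (0.62 ± 0.07) and GDB1 (0.42 ± 0.06), against 2.42% of all features. The difference of responses was called lower for 9, against 10.6%. In EtOH 1 of the 16 was higher and 8 were lower in the S10D-labelled strain, against 26.7% and 31.4%, led by GSY1, a glycogen synthase (-1.58 ± 0.27). In E2 1 was higher and 14 were lower, against 27.0% and 27.3%, led by the glycogen synthase GSY2 (-1.66 ± 0.08).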

How the data were processed

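Poly(A) RNA of 12 libraries was counted by the authors. The deposited values are raw counts, whole numbers of reads per feature, and per the submitters' processing notes the tools listed were bcl2fastq 2.20.0.422, cutadapt 1.10, STAR 2.5.3a and HTSeq 0.6.1p1, with builds R64 and sacCer3. Which tool did what, and how HTSeq treated overlaps and strand, is not given in the sources used here, so reads of overlapping or antisense features may be shared. Features kept by edgeR's filterByExpr (minimum count 10, minimum total count 15; 5990 of 7127) were normalized by TMM and tested over all 12 libraries in a model of 4 group means (8 residual degrees of freedom) with edgeR 4.0.16 (robust quasi-likelihood test, 2-sided, R 4.3.3). A feature was called where its p, adjusted by Benjamini-Hochberg over the 5990 features, was under 0.05. The common biological coefficient of variation was 6.31%. SE is the log2 fold change divided by the square root of its F. Levels are TMM-scaled CPM with the SD of 3 libraries, and 9362173 to 11806239 counts per library set their precision. PCR copies cannot be told from separate molecules, as no molecular identifiers were counted. The fits were run on counts simulated from the same model, without a library that stood apart, so this checks the code alone. Promoters were read from the R64 genome of RefSeq and coding sequences aligned with biopython 1.88.

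The members, the lists of regulators, paralogs, storage carbohydrate genes and markers, and the tests were chosen with earlier results of these data known. Library values are given for the 7 members named in the rule of the set, for the 4 highest and 3 lowest fold changes per comparison (among members averaging 10 CPM or more), for the extremes of the difference of responses, for MSN2 and MSN4, and for a few further members chosen after their values were seen. Of the other lists up to 4 called genes per comparison and the paralogs of described members are named, and not every gene this rule gives is printed. The results were recomputed with DESeq2 1.42.0, with its size factors in edgeR, unfiltered, above a mean of 10 CPM, with a 2-fold threshold, blocked by replicate number, fitted on only the groups compared, and with each library left out in turn.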

Additional observations from a re-analysis of the deposited data

Results flagged for a closer look

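For 25 general stress genes the E2 response differed between the strains by the interaction term of the fit (edgeR, adjusted p under 0.05), and in each of the 25 it was lower in the S10D-labelled strain. The values are the log2 response of the S10D-labelled strain minus that of the reference strain.

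Among the chaperones, the difference was -0.88 for HSP12 and -1.42 for HSP26. The enzymes acting on oxidants, aldehydes and other small molecules had differences of -1.46 for CTT1, -1.12 for ALD3, -0.77 for GRE3, -0.74 for GAD1 and -0.43 for PNC1. The sugar enzymes had differences of -1.46 for GND2, -1.29 for NQM1, -1.24 for SOL4, -0.88 for AMS1 and -0.79 for GLK1, and the hydrophilin SIP18 had -0.53.

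The surface and membrane proteins had differences of -1.20 for PHM7, -0.93 for OM45, -0.80 for YGP1 and -0.41 for RTN2. The proteinase inhibitors had -1.19 for TFS1 and -0.88 for PAI3. The regulators had -1.12 for DCS2, -0.87 for SDP1 and -0.745 for XBP1. DDR2, MOH1 and MSC1 had -1.19, -1.06 and -1.05.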

How the results depend on the processing

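Of the 32 calls in the reference response 31 were kept under every alternative that gave a value, the 2-fold threshold aside (ALD2 was not), and of the 25 calls of the difference 22 were (PNC1, SDP1 and SIP18 were not). SDP1 had no value above a mean of 10 CPM, which left 34 members. With each library left out in turn, the reference response had 29 to 32 members higher and 2 lower, the S10D-labelled response 3 to 11 higher and 0 to 5 lower, and the difference 0 to 1 higher and 22 to 29 lower. The S10D-labelled strain against the reference had 5 to 12 higher and 17 to 19 lower in EtOH, and 0 to 2 higher and 29 to 32 lower in E2. Over all features these fits gave 1103 to 1566 higher and 1030 to 1567 lower in the reference response. In the difference they gave 411 to 992 higher and 491 to 1002 lower. Between the strains they gave 1459 to 1847 higher and 1664 to 2088 lower in EtOH. In E2 the strain comparison gave 1424 to 1976 higher and 1377 to 2013 lower. Without reference EtOH replicate 3, PNC1 and STF2, not called between the strains in EtOH (-0.04 and -0.18), were called higher, and over the fits without 1 library PNC1 ranged from -0.11 to 0.13 and STF2 from -0.33 to 0.15; the cause was not tested.

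A threshold of 2-fold left 17 members higher and 0 lower in the reference response, 0 and 0 in the S10D-labelled response, 12 lower in the difference, 0 higher and 8 lower between strains in EtOH and 17 lower in E2. Over all features it left 117 higher and 12 lower of 1342 and 1329, 4 and 0 of 145 and 128, 8 and 71 of 588 and 636, 267 and 279 of 1602 and 1879, and 170 and 273 of 1616 and 1638. A fit of the compared libraries alone gave 10 members higher and 7 lower in the S10D-labelled response (670 and 700 of all features), 1 higher between strains in E2, and 869 features lower in the reference response; the difference could not be fitted this way. DESeq2 called 224 features lower in the S10D-labelled response. In that response all features ranged over the fits without 1 library from 43 to 507 higher and from 58 to 484 lower, highest without reference EtOH replicate 3, where the difference had 992 higher and 1002 lower.

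Replicate numbers were shared between groups, and the deviations of same-numbered libraries correlated above 0.1 in 5 of 18 pairs (-0.0856 to 0.205). Between EtOH and E2 of the same strain, same-numbered pairs ran from 0.0755 to 0.189 (reference) and from 0.0524 to 0.0897 (S10D-labelled). Differently numbered pairs ran from -0.117 to -0.0325 and from -0.0865 to 0.0025. The main fit does not pair the libraries, and whether they belong together by number was not tested. With the replicate block 1 member was lower in the S10D-labelled response in place of 2, and 31 in place of 30 were higher in the reference response. That block joined same-numbered libraries across both strains, and a pairing of EtOH and E2 within each strain was not fitted.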

Other observations

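The spread of fold changes over the 35 general stress genes, a description across genes with no test, differed between comparisons. In the reference E2 response the quartiles of the members lay at log2 fold changes of 0.55 and 1.24, with an SD over members of 0.529. In the S10D-labelled response the same range was -0.04 to 0.19, with an SD of 0.186. Between the strains the members were spread more widely, with an SD of 1.002 in EtOH and 1.08 in E2, and GRE1 and SIP18 lay farthest from the rest. HSP12 alone made up 7.74% to 8.46% of the members' counts in reference EtOH, 10.9% to 11.5% in reference E2, 5.62% to 5.92% in S10D-labelled EtOH and 7.14% to 7.66% in S10D-labelled E2.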
